A study of Labroides dimidiatus with 23 samples.

Results

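Control cleaner wrasse whose libraries carry the number 120 were set against control fish whose libraries carry the number 30, by the places where peaks of acetylated histone were called in their forebrain. The libraries were chosen by their titles, which gave 6 control 120 and 5 control 30 libraries, 11 of the 23 in the series. Cleaner wrasse (Labroides dimidiatus) is a reef fish that picks parasites from client fish. All fish were adults that took a social preference test. Control fish met clients that were both new to them, while the other 12 libraries came from familiar fish, which had been exposed to 1 client beforehand and also carry the number 120 or 30. The labels give no unit for that number, and no strain, sex or age beyond adult. Whether each library is a separate fish is not stated, and p-values therefore describe spread among libraries that may be technical.

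The antibody recognised histone H3 acetylated at lysine 27 (H3K27ac). The acetyl group is written by the coactivators p300 and CBP and erased by histone deacetylases, and the mark lies on active promoters and enhancers. Long acetylated domains often cover genes that are strongly used in a cell type. In the brain, acetylation at enhancers can change with neuronal activity. CUT&RUN was used to map the mark: a nuclease held by the antibody cuts out the bound chromatin, and the released fragments are sequenced. The genes at the regions below, and the marker genes of forebrain, were not analysed here, since no annotation was used; coordinates are those of the deposited lists, and the sources used here do not name their genome build. Read depth is unknown. The values below describe called peaks and not the amount of acetylation, and a change in height at a place with peaks in both groups would not be seen.

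Control 30 replicate 3 stood apart from the other control libraries. The Jaccard index, the length under peaks shared by 2 libraries divided by their joint length, had a median of 0.538 between this library and its own group. For the other 10 control libraries that median was 0.637 to 0.660. Regions present in a single one of the 11 control libraries numbered 1886 in control 30 replicate 3, against 157 to 523 in each of the other 10. Some of the results below are also given without it. The 5 measures of the number and length of peaks are not, and for some of them ranges over left-out libraries are given at the end. One familiar library, familiar 30 replicate 2, had few peaks and was left out of the test of regions.

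In none of 5 measures of the number and length of peaks did the difference between the 2 control groups pass an adjusted p of 0.05. Control 120 lists held 42228, 46971, 43281, 48264, 46408 and 48125 peaks, against 43435, 42550, 46441, 43486 and 46361 in control 30. The 2 highest and the lowest value of the 11 were all in control 120, and the means were 45880 ± 2541 (SD, n = 6) at 120 and 44455 ± 1816 (n = 5) at 30 (two-sided exact permutation test, p = 0.286). The length under peaks was 87.9 ± 5.54 Mb at 120 against 89.4 ± 2.53 Mb at 30, a difference that did not pass either (exact permutation p = 0.632). The lowest covered lengths, 78.7 and 83.7 Mb, belonged to control 120 replicates 3 and 2, and without replicate 3 the difference of -1.47 Mb became 0.377 Mb.

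Peaks were slightly narrower in most control 120 lists. The median width was 1102, 1017, 1017, 1020, 1049 and 1031 bp in control 120, against 1097, 1077, 1024, 1073 and 1062 bp in control 30. Control 120 replicate 1 held the widest median of all 11, and the other 5 control 120 libraries lay below each control 30 library except replicate 3. The difference of -27.3 bp did not pass (exact permutation p = 0.165), and without control 120 replicate 1 it was -39.8 bp (exact permutation p = 0.0238, not adjusted). Leaving out the control 120 library with the widest median was bound to widen the difference. Among the differences with a single control library left out, it was the most negative. Peaks of 10 kb or longer numbered 1020 ± 175 at 120 and 1113 ± 81.1 at 30 (exact permutation p = 0.320). The 975 long regions of 10 kb or more that were present in all 22 kept libraries were split into 2.39 ± 0.295 peaks each at 120 and 2.28 ± 0.198 at 30 (exact permutation p = 0.450). Over the 5 measures, the lowest adjusted p was 0.534.

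**Figure D1:**
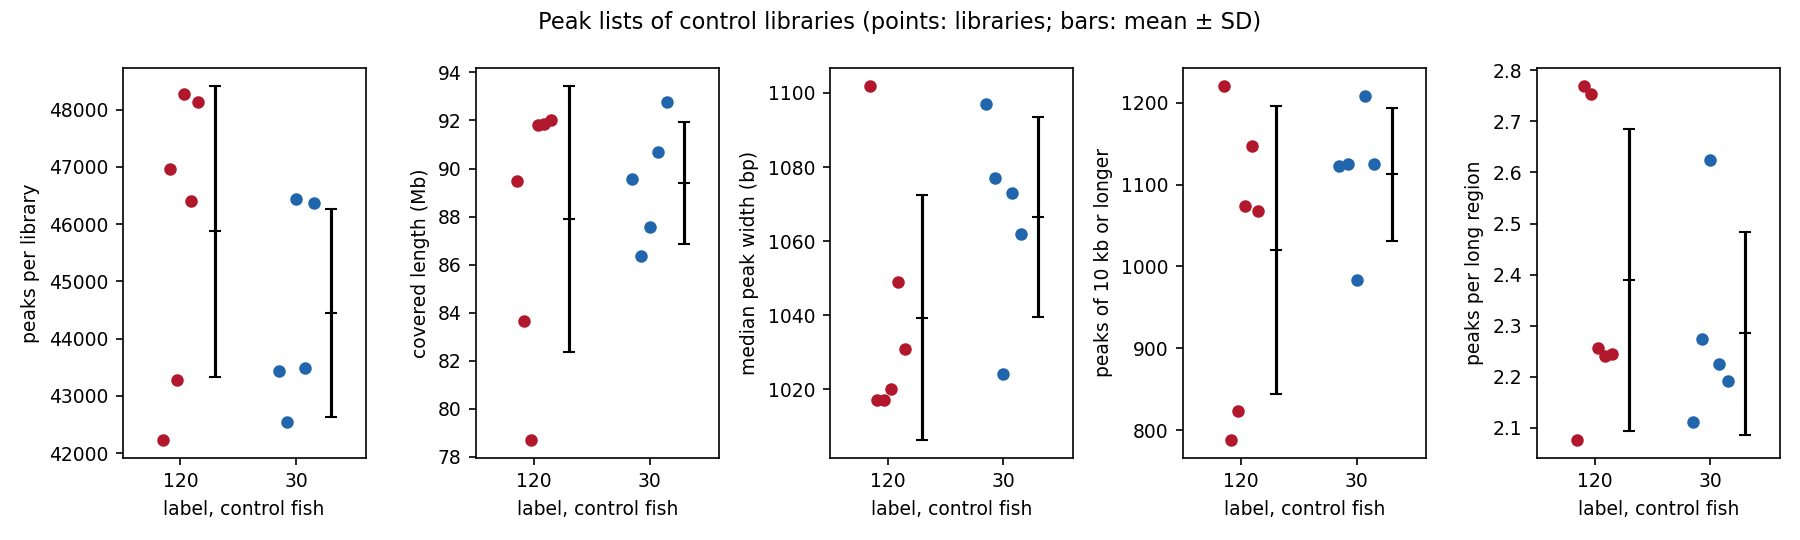
Number of peaks, covered length, median peak width, peaks of 10 kb or longer and peaks per long region in each control library (points), with mean ± SD beside them, for 6 control 120 and 5 control 30 libraries. The ranges of the groups overlap in all 5 panels, and median width lies between 1017 and 1102 bp at 120 and between 1024 and 1097 bp at 30.

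Library numbers in the titles run in 3 ranges, and the 2 control libraries numbered 17 to 29 are both labelled 120. In the ranges that hold both labels, control 30 libraries carry the lower numbers (43 to 45, 69 and 70). Control 120 libraries there carry the higher ones (55 to 57, and 78). Label and order of library number can therefore not be told apart within a range. Among libraries numbered 43 to 59, with 3 in each group, the difference was 1842 peaks (exact permutation p = 0.5) and -37.3 bp in median width (exact permutation p = 0.2), and the smallest p this size allows is 0.1. For libraries numbered 69 to 80, with 1 library at 120 and 2 at 30, the differences were 3202 peaks and -36.5 bp, with no test. Covered length differed by -0.368 Mb in the range 43 to 59 (exact permutation p = 1) and by 0.298 Mb in the range 69 to 80.

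Sharing of covered bases was not shown to be greater between libraries of the same label than between libraries of different labels. The mean Jaccard index was 0.634 within and 0.632 between the groups (one-sided exact permutation test over 462 splits, p = 0.381). Pairs within control 120 ranged from 0.628 to 0.675, pairs within control 30 from 0.512 to 0.665 and pairs between them from 0.536 to 0.678. The highest index of all, 0.678, joined control 120 replicate 4 with control 30 replicate 1. Without control 30 replicate 3, the means were 0.653 within and 0.651 between groups (exact permutation p = 0.238).

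No difference in how covered bases were spread over chromosomes, or over short and long regions, passed an adjusted p of 0.05. Of 24 chromosomes, the smallest p for the share of covered length was that of chromosome 8, which held 4.28% ± 0.0568 at 120 (SD, n = 6) and 4.19% ± 0.146 at 30 (n = 5; exact permutation p = 0.190, adjusted p = 0.931). Here control 30 replicate 3 had the lowest share, 3.93%. Without it the control 30 mean was 4.26%, and the difference from control 120 was 0.0257 points (exact permutation p = 0.419) in place of 0.0911. Regions were formed from bases covered in at least 3 of the 22 kept libraries of the whole series. Those under 1 kb were covered by 29.04% ± 5.01 at 120 and 28.9% ± 3.93 at 30. For the longest class, 10 kb and above, cover was 78.1% ± 3.89 at 120 and 78.5% ± 3.97 at 30, or 80.3% ± 0.650 at 30 without replicate 3. The lowest adjusted exact permutation p over 4 length classes was 0.996.

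A region is called present in a library when peaks cover at least 50% of it. Of 52979 regions, 8652 (16.3%, 54.2 Mb) were present in all 11 control libraries, and they had a median length of 3089 bp. A further 5141 regions (9.70%) were present in 1 control library, with a median length of 601 bp, and 734 in none. Few regions had opposite presence in the 2 groups. Present in all 6 control 120 and in none of 5 control 30 libraries were 7 regions, and the opposite held for another 7 (0.0132% of regions in each direction). Restricted to strong peaks, whose -log10 q reached 5, both counts were 0. Without control 30 replicate 3, which makes the condition easier, there were 17 and 21.

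**Figure D2:**
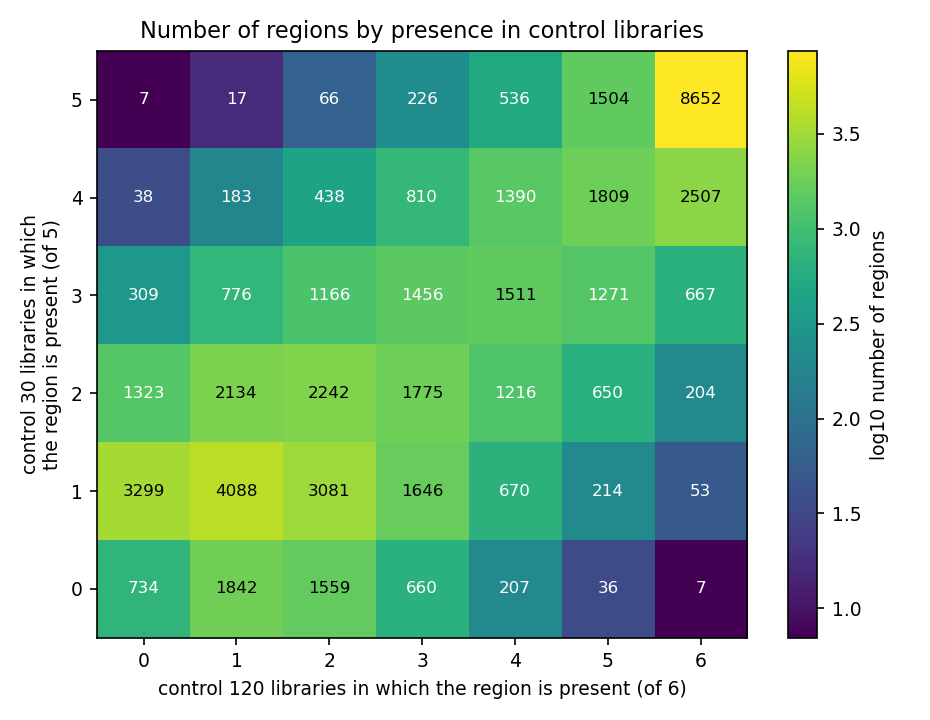
Number of regions by the number of control 120 libraries (horizontal axis, of 6) and control 30 libraries (vertical axis, of 5) in which each was present; colour gives the log10 of the number. The largest cell, at the top right, holds the 8652 regions present in all 11, while the cells for presence in all of one group and none of the other hold 7 regions each.

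In the test of regions, which compared the percent of each region under peaks across 22 libraries of 4 groups, no region passed an adjusted p of 0.05. Of 52924 tested regions, 0% were called by limma with Benjamini-Hochberg adjustment. Before adjustment, 1691 (3.2%) had a p under 0.05; cover at 120 was the higher in 925 of these (1.75%) and the lower in 766 (1.45%). The nominal level of that threshold is 5%. The median difference over all regions was 0 points. The order of the 2 counts turned when any of 3 control 30 libraries was left out, with 983 higher and 1093 lower without replicate 3, 807 and 1014 without replicate 2, and 837 and 900 without replicate 4. It did not turn without control 30 replicate 1 (982 and 971) or replicate 5 (1065 and 764), and without control 120 replicate 3 the counts were 1105 and 531. Presence tested by Fisher's exact test gave 0 called regions, and 158 of 52924 with an unadjusted p under 0.05. Its lowest p of 0.00216 was reached by 14 regions, while adjustment could pass a region only if 2292 had that p. The ranges of cover in the 2 groups did not overlap in 54 regions that were higher (0.102%) and 53 that were lower (0.1%) at 120. Without control 30 replicate 3 these counts were 142 and 219. Leaving out any library makes this condition easier, so the counts could not fall. They were not taken with any other library left out, so the rise cannot be credited to replicate 3.

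The region with the smallest p was a 4119 bp stretch on chromosome 6 from 1088987 to 1093105, with lower cover at 120. Peaks covered 10.002, 0, 0, 37.8, 0 and 8.13% of it in control 120 libraries, against 85.3, 59.4, 90.8, 85.6 and 86.0% in control 30 libraries. Every control 30 value lay above every control 120 value, and 3 control 120 libraries had no peak there at all. The difference was -72.1 ± 10.8 points (SE), with a limma adjusted p of 0.0528, just short of the threshold. It was -65.9 points among libraries numbered 43 to 59 and -77.7 points among those numbered 69 to 80. Familiar libraries averaged 47.9% ± 16.3 at 120 and 59.2% ± 21.6 at 30, which differ by -11.3 ± 10.8 points (limma adjusted p = 0.999). The difference between the control and familiar contrasts had an unadjusted limma p of 0.000617 here. Over all regions 2194 (4.15%) reached an unadjusted p under 0.05 for this interaction, and its lowest adjusted p was 0.9999.

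The control peaks behind this region had -log10 q values below 5. In 3 control 30 libraries 1 peak of 3514 to 3541 bp filled it, in replicate 3 a peak of 3738 bp, and in replicate 2 it was split into 2 peaks of 1791 and 688 bp. Control 120 libraries had either no peak or fragments of 335 to 907 bp. The -log10 q of these peaks lay between 1.38 and 3.95, where the lists end at 1. Within the own list of a library, its best peak here ranked at the 13.2 to 59.8 percentile of -log10 q. Both neighbouring regions had close means in the control groups, but at higher coordinates this rested on a single library. The one at lower coordinates, from 1084521 to 1087975, was covered by 71.8% ± 7.93 at 120 and 73.5% ± 14.2 at 30, and the one from 1094118 to 1096784 by 35.7% ± 22.0 at 120 and 36.3% ± 33.2 at 30 (limma adjusted p = 1 for each). In the latter, control 30 replicate 3 had 95.5% and the other control 30 libraries 18.9 to 25.4%. The medians there were 38.5% at 120 and 22.4% at 30.

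**Figure D3:**
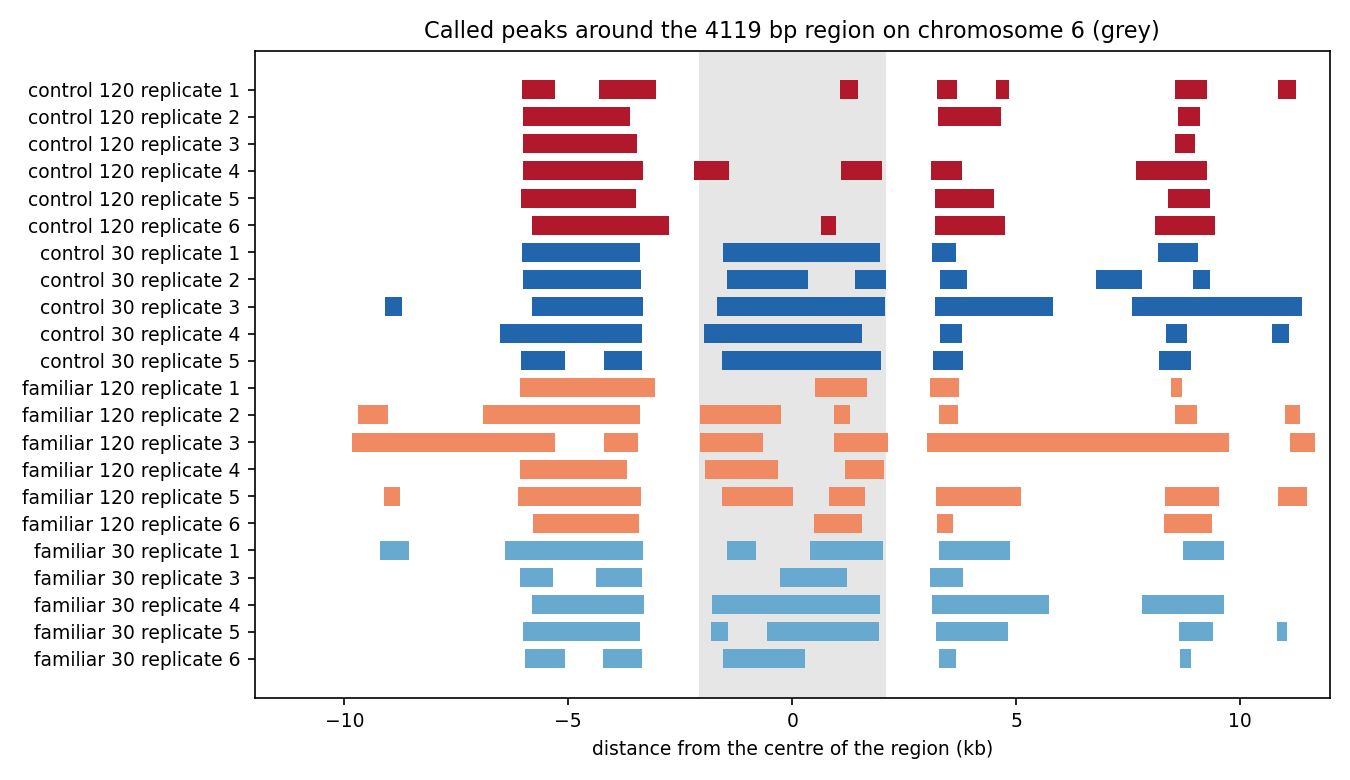
Called peaks (bars) in the 12 kb on either side of the centre of the 4119 bp region on chromosome 6 (grey), by library; the horizontal axis is distance in kb. Peaks fill most of the grey stretch in the 5 control 30 libraries and are absent or short in the 6 control 120 libraries, while familiar libraries of both labels hold peaks there.

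In 3 regions, of 387, 398 and 574 bp, the separation was complete, with the region present in every library of one control group and free of any peak in the other. Peaks in the chromosome 3 region from 6507369 to 6507755 covered 65.1, 58.9, 72.4, 100, 88.9 and 58.7% in control 120 libraries and 0% in all 5 control 30 libraries. Another such region lay on chromosome 3 from 5963342 to 5963739, with 76.6, 86.4, 91.2, 60.8, 99.7 and 81.7% in control 120 and 0% in each control 30 library. A chromosome 15 region from 23935429 to 23936002 was the reverse, with 0% in all 6 control 120 libraries, against 65.5, 64.5, 100, 70.7 and 67.9% in control 30.

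These separations did not pass the adjustment over 52924 regions. The limma differences were 74.0 ± 14.2, 82.7 ± 18.3 and -73.7 ± 14.6 points (SE), with adjusted p of 0.766, 1 and 0.766. When the model held only the 11 control libraries, the second region on chromosome 3 (limma adjusted p = 0.0176) and the region on chromosome 15 (limma adjusted p = 0.0304) passed. At both, a whole control group lay at 0%, the lowest possible value, and so had no spread. The model does not describe such values. Familiar libraries covered the first region by 19.7% ± 30.9 at 120 and 13.7% ± 30.7 at 30, and the second by 48.4% ± 40.6 and 51.5% ± 47.1. On chromosome 15 familiar libraries had 25.4% ± 40.2 at 120 and 9.20% ± 20.6 at 30, so that the order of the means was opposite to that in controls. The peaks on chromosome 3 from 6507369 ranked at the 17.1 to 91.0 percentile of their own lists, those of the second region at 16.0 to 68.4, and those on chromosome 15 at 6.23 to 63.3.

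In 3 of the 10 regions that lead the higher direction, every control 120 library and 2 or more control 30 libraries had a peak. On chromosome 12 from 10482794 to 10484061, control 120 libraries had 89.7, 94.3, 77.2, 87.1, 72.2 and 77.5%, against 36.4, 0, 0, 24.1 and 30.1% in control 30. On chromosome 4 from 30938645 to 30939552 the ranges were 53.4 to 83.9% at 120 and 0 to 41.2% at 30, and on chromosome 23 from 10999458 to 11000531 they were 72.1 to 89.9% and 0 to 47.6%. In all 3 regions every control 120 library lay above every control 30 library, and the limma adjusted p was 0.997, 1 and 1.

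In the other 5 of these 10 regions, 1 or more control 120 libraries had no peak. The 1288 bp region on chromosome 17 from 8214852 to 8216139 had cover of 61.4, 100, 100, 72.3, 0 and 34.5% at 120, and in control 30 only replicate 2 had a peak, over 19.9%. Control 30 libraries had no peak in any of the remaining 4. Of these, the region on chromosome 23 from 1662045 to 1662640 was covered in 5 of 6 control 120 libraries, with a mean of 63.2% ± 40.2. The chromosome 3 region from 6006848 to 6007159 had a peak in 4 of 6 control 120 libraries, and so did the chromosome 4 region from 11603253 to 11603541. No kept familiar library had a peak in either. Both regions were thus formed through control 120 libraries alone, since each base of a region had to be covered in at least 3 kept libraries. Their higher cover at 120 follows in part from that rule. The same limit holds for the regions on chromosome 17 from 8214852 and on chromosome 23 from 1662045. Outside control 120, the chromosome 23 region had a peak only in familiar 120 replicate 6. The chromosome 17 region had one only in control 30 replicate 2 and familiar 30 replicate 3. Neither could have been formed without control 120 libraries. The fourth, on chromosome 7, is described below with the familiar libraries.

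Lower cover at 120 was led, after the regions on chromosomes 6 and 15, by chromosome 18 from 17419372 to 17420185. No control 120 library had a peak there, against 64.7, 42.0, 45.6, 99.6 and 66.3% in control 30, which is -63.7 ± 12.8 points (SE; limma adjusted p = 0.766). On chromosome 13 from 1846458 to 1847275, control 120 libraries again had no peak, and 4 of 5 control 30 libraries had 46.2 to 100%. A single control 120 library had a peak in each of 3 further regions. On chromosome 9 from 21375848 to 21376237, replicate 2 had 57.2% and the others 0%, against 62.1 to 98.7% in control 30. On chromosome 9 from 16901327 to 16902511, replicate 6 had 24.5%, against 56.7 to 100% in control 30. On chromosome 5 from 24104186 to 24105391, replicate 2 had 30.8%, against 29.4 to 100% in control 30, so that these ranges overlap.

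Control 120 replicates 2 and 3 reached 33.5 and 43.6% on chromosome 17 from 8014324 to 8016241 and the other 4 had no peak, where control 30 libraries had 32.4 to 92.5%. The last 2 places in the lower direction were tied among 13 regions of the same p. The first 2 in genome order were on chromosome 3, from 6640938 to 6641880 and from 36811493 to 36811755. Each had a peak in 3 of 5 control 30 libraries and in no other kept library. Their cover of 100% in those 3 follows from how regions were formed, since each base of a region had to be covered in at least 3 kept libraries.

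**Figure D4:**
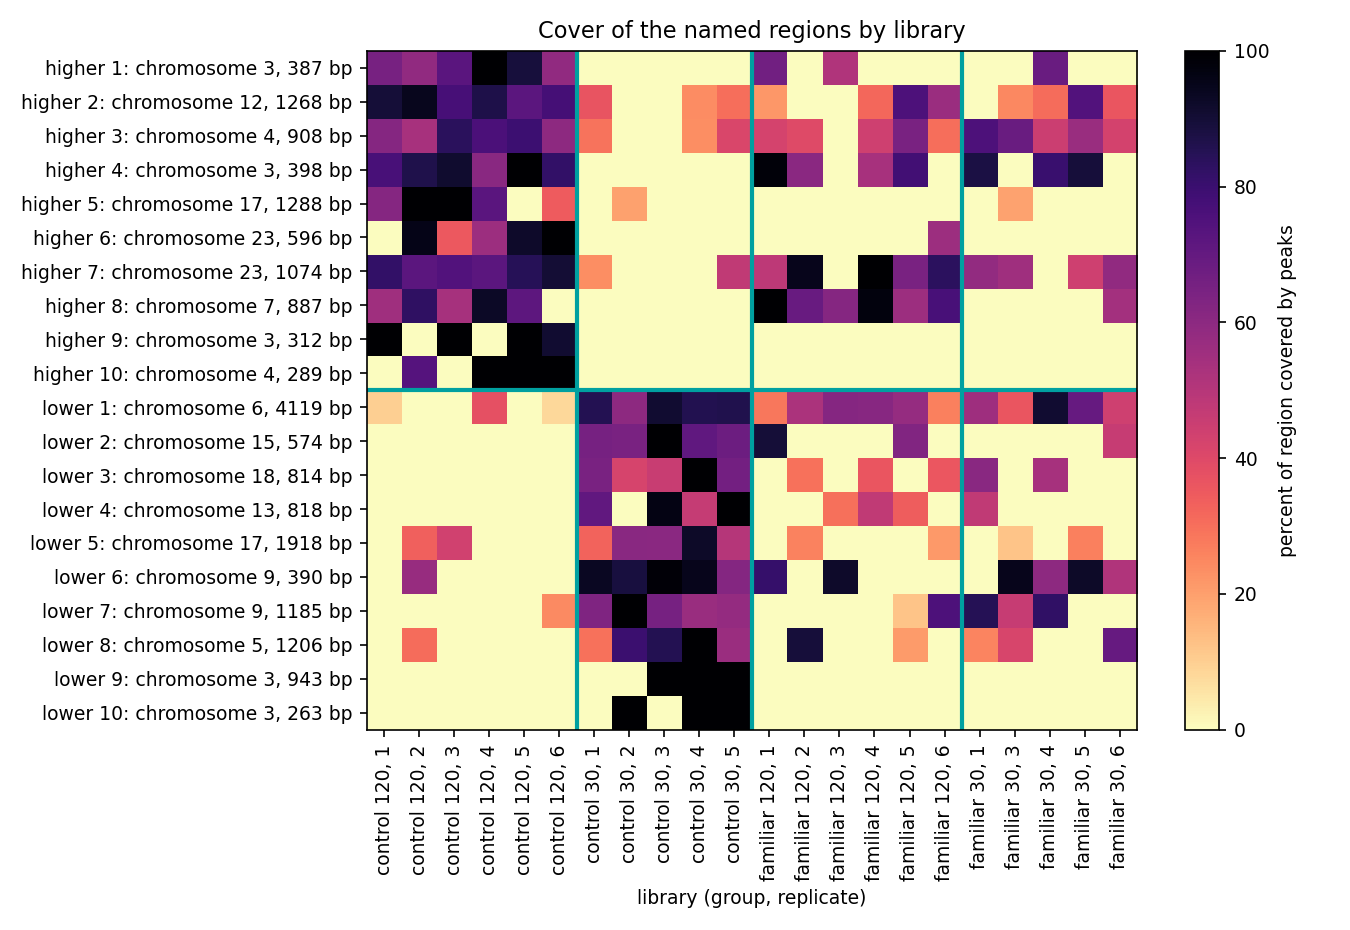
Percent of each named region under peaks (colour) in the 22 kept libraries (columns), with the 10 regions of smallest p that were higher (top) and lower (bottom) at 120 in controls. The block of control 120 libraries is dark at the top and pale at the bottom and that of control 30 libraries the reverse, which follows from how the regions were chosen, while in the familiar blocks to the right dark and pale cells are mixed.

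In each of the 6 longest regions with opposite presence, 3 or more libraries of the group counted as lacking the region had a peak in it. Among those present in all control 120 and no control 30 libraries, the longest was a 5224 bp region on chromosome 22 from 15874055 to 15879278. It was covered by 74.7, 54.0, 61.8, 78.9, 59.5 and 54.7% at 120, against 34.9, 31.6, 45.9, 30.7 and 22.1% at 30. Every library had a peak there, and the best peaks ranked at the 58.8 to 84.6 percentile of their own lists. The next, on chromosome 2 from 34896552 to 34898136, had 53.9 to 100% at 120 and 0 to 43.2% at 30. In the opposite direction, a 4172 bp region on chromosome 21 from 7893202 to 7897373 had 19.5 to 47.2% at 120 and 50.5 to 100% at 30. On chromosome 17 from 19210152 to 19214088 the ranges were 23.2 to 46.2% at 120 and 54.6 to 85.6% at 30. Unadjusted limma p-values of these 4 regions were 0.00978, 0.000848, 0.00916 and 0.00206, and each adjusted p was 1.

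Small p-values were rare among long regions. An unadjusted p under 0.05 was reached by 4.41% of regions under 1 kb, 3.04% of those of 1 to 3 kb, 1.38% of those of 3 to 10 kb and 0.237% of those of 10 kb or longer, beside 3.2% of all. The median absolute difference fell in the same order, with 14.2, 9.04, 6.005 and 3.38 points. Ranges of cover that did not overlap between the control groups were rarest, per region tested, in the class under 1 kb. They were found for 10 higher and 6 lower of 20660 regions under 1 kb, and for 29 and 28 of 21581 of 1 to 3 kb. Of 8574 regions of 3 to 10 kb they were found for 13 and 17, and of 2109 of 10 kb or longer for 2 and 2. The regions with p under 0.05 had a median length of 975 bp where higher and 884 bp where lower at 120, against 1281 bp over all tested regions. Their best peaks had a median percentile of 26.5 in both directions, against 39.2 over all. The median distance to a region present in all 11 control libraries was 26938 bp for the higher and 15250 bp for the lower ones, and 14188 bp over all.

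The 5 regions of 10 kb or longer below an unadjusted p of 0.05 were looked up after the values were seen. Cover was greater at 120 in the chromosome 15 region from 25570929 to 25582200, with 88.1% ± 5.46 at 120 and 70.96% ± 6.69 at 30. It was also greater in the chromosome 17 region from 9048062 to 9059934, with 86.6% ± 10.3 at 120 and 65.2% ± 18.4 at 30. Control 120 libraries had less cover over a 30340 bp domain on chromosome 14 from 7475679 to 7506018 (64.8% ± 14.0 at 120 against 84.1% ± 11.8 at 30). On chromosome 22 from 5238946 to 5261595, control 120 libraries had 52.1 to 74.1% and control 30 libraries 73.1 to 83.2%, and on chromosome 8 from 12927829 to 12938027 the means were 66.8% ± 19.4 at 120 and 90.2% ± 7.77 at 30. Their unadjusted limma p-values ran from 0.0253 to 0.0488, and each adjusted p was 1.

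The regions with small p in controls had much the same split of signs in familiar fish as all regions had. Familiar 120 and familiar 30 libraries share none of the control libraries, but the regions and the estimate of spread are common to both contrasts. Of the 925 regions with small p and higher cover at 120 in controls, 328 (35.5%) were also higher at 120 in familiar libraries, beside 33.3% of all 52924 tested regions. Of the 766 lower ones, 491 (64.1%) were lower in familiar libraries, beside 65.9% of all. The median difference in familiar libraries was -5.77 points for the 925, -6.32 points for the 766 and -4.81 points over all regions. Of the 54 regions with higher and non-overlapping ranges in controls, 13 were higher and 41 lower at 120 in familiar libraries. Of the 53 lower ones, 41 were lower and 12 higher. Both sets were thus mostly lower at 120 in familiar libraries, as were all tested regions.

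Of the 925 regions higher at 120 in controls, 8 were also higher in familiar fish with an unadjusted limma p under 0.05. Of the 766 lower ones, 28 were also lower with such a p. The opposite sign with such a p was found for 55 of the 925, which were lower at 120 in familiar fish, and for 9 of the 766. Over all 52924 tested regions, 2215 (4.19%) had such a p in familiar fish, 368 of them higher and 1847 lower at 120. How the counts of the same and of the opposite sign compare with these shares was not tested. Familiar 120 replicates 3 and 4 had 34714 and 39584 peaks over 67.3 and 69.9 Mb, less than the 82.1 to 95.2 Mb of the other kept familiar libraries, and their part in these counts was not tested. Among the 36 regions of the same sign, the smallest p in controls was on chromosome 7 from 23953960 to 23954846. Control 120 libraries had 55.1, 82.5, 53.6, 92.8, 71.6 and 0% there, and no control 30 library had a peak. In familiar libraries all 6 labelled 120 were covered, by 76.8% ± 18.4, against 1 of 5 labelled 30, with a mean of 10.9% ± 24.3. The differences were 59.3 ± 13.8 points in controls and 65.9 ± 13.8 points in familiar fish (SE, limma adjusted p = 1 and 0.473). The next 2 regions were lower at 120. On chromosome 17 from 17290907 to 17291793, controls had 19.2% ± 32.7 at 120 and 74.1% ± 21.0 at 30, and familiar libraries 11.4% ± 18.8 at 120 and 72.6% ± 32.3 at 30. On chromosome 7 from 3052251 to 3052828, controls had 30.2% ± 35.6 at 120 and 86.8% ± 10.3 at 30, and familiar libraries 35.8% ± 39.4 at 120 and 90.9% ± 10.47 at 30. These 2 were chosen after the values were seen.

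**Figure D5:**
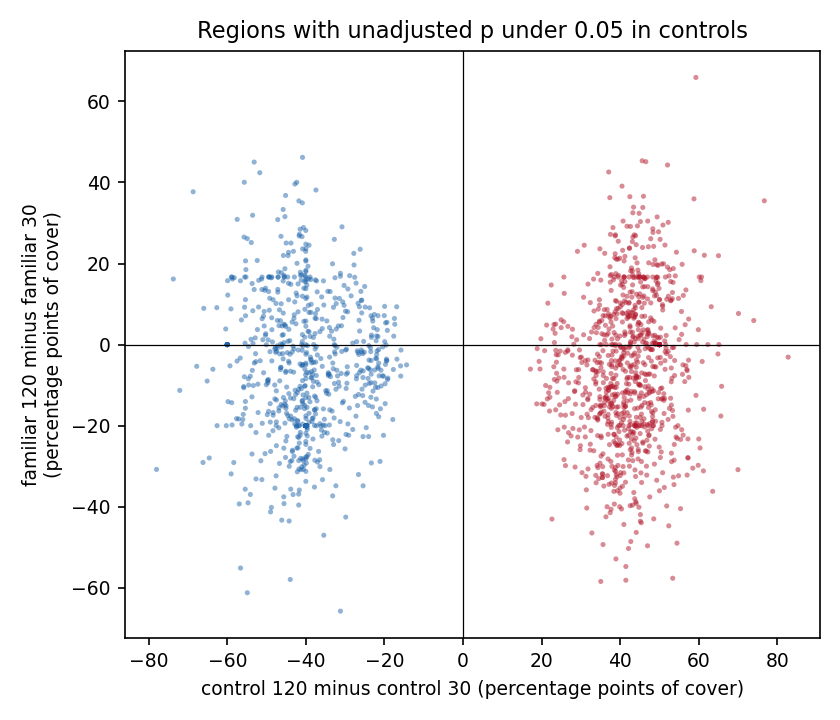
Difference in cover of familiar 120 minus familiar 30 (vertical axis, percentage points) against that of control 120 minus control 30 (horizontal axis) for the 1691 regions with an unadjusted p under 0.05 in controls; points on the right (red) were higher and on the left (blue) lower at 120 in controls. Both clouds spread above and below 0 on the vertical axis, and the highest point is the region on chromosome 7 from 23953960.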

How the data were processed

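Per the submitters' processing notes, the tools used were Trimmomatic 0.39, FastQC, Bowtie2, SAMtools, Picard and MACS2; their settings, the genome build and how input served are not stated in the labels. The authors deposited 1 list of broad peaks per library. Each list gives a score, a fold ratio over background, and -log10 p and -log10 q values as the authors deposited them; no listed -log10 q is below 1. Read depth is unknown, so no counting interval is given.

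Members, lists and tests were chosen with earlier results of these data known. Regions start from bases under peaks in 3 or more of 22 kept libraries (those with at least 0.5 times the median of 45859 peaks), bridging gaps no longer than 200 bp. Pieces of at least 200 bp formed 52979 regions, without the mitochondrial genome. Percent cover was tested with limma 3.58.1 (R 4.3.3), with 4 groups in a single model, for regions with a mean cover of 5 to 95%, which left out 55. P-values were adjusted by Benjamini-Hochberg, with a threshold of 0.05. Percent cover is bounded and often 0 or 100, which this model does not describe, so its p-values are approximate. Exact permutation tests used Python 3.11.15 and scipy 1.17.1. By rule, the text names 10 regions per direction by smallest p, ties in genome order, plus the 3 longest of opposite presence per direction. Alternatives are listed at the end. Planned gene lists and the tissue check were not run, since no annotation was used here.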

Additional observations from a re-analysis of the deposited data

Results flagged for a closer look

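A library far from the rest of its group was looked for in 116 sets of 5 or 6 values, and 18 values were marked, where chance marks about 1 in 20 sets. No cause was tested. Control 30 replicate 3 was marked for a median Jaccard index of 0.538 with its own group. It was also marked for 71.5% mean cover of regions of 10 kb or longer, and for its share of covered length on chromosomes 8 (3.93%), 16 (4.005%) and 17 (4.73%). Control 120 replicate 2 was marked on chromosomes 6 (4.35%), 7 (4.41%) and 21 (4.58%), and control 120 replicate 4 on chromosome 22 (3.56%).

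The other 9 marks concern percent cover of named regions, where a lone value beside zeros is marked by its nature. Such lone values were 57.2% in control 120 replicate 2 on chromosome 9 from 21375848, 24.5% in control 120 replicate 6 on chromosome 9 from 16901327, 30.8% in control 120 replicate 2 on chromosome 5 from 24104186 and 19.9% in control 30 replicate 2 on chromosome 17 from 8214852. On chromosome 6 from 1088987, control 120 replicate 4 with 37.8% and control 30 replicate 2 with 59.4% each lay nearer to the opposite group than the rest of their own. The remaining 3 were 100% in control 30 replicate 3 on chromosome 15 from 23935429, 62.1% in control 30 replicate 5 on chromosome 9 from 21375848 and 100% in control 30 replicate 2 on chromosome 9 from 16901327.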

How the results depend on the processing

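The count of 0 regions past the threshold became 2 with only the 11 control libraries in the model, 1 with array weights, and 5 with regions also built from the control libraries. It was 0 with all 23 libraries, with peaks whose -log10 q reached 5 and with library number range as a block. Covered length in the model, an arcsine scale, regions from bases in at least 11 libraries and no filter on cover also left it at 0. Fisher's exact test gave 0 as well, but to pass any region it needed 2292 regions at its lowest p of 0.00216, so it says little here. With each library left out it ran from 0 to 1: the region on chromosome 6 from 1088987 passed when control 120 replicate 4 (limma adjusted p = 0.0198), control 30 replicate 2 (0.0434) or either of familiar 30 replicates 3 (0.0460) and 4 (0.0223) was left out. Its limma adjusted p was 0.220 with the block, 0.0905 with only the control libraries and 0.745 with all 23. Other left-out libraries moved it away from the threshold. The lowest limma adjusted p of any region was 0.275 without control 30 replicate 4 and 0.284 without control 30 replicate 5. It was 0.232 without control 120 replicate 2, and also without control 120 replicate 3. The 3 libraries that share extra regions were control 30 replicate 3, familiar 30 replicate 4 and familiar 120 replicate 3. Without these 3, an alternative chosen after seeing the data, 0 regions passed. For named regions under alternatives, 723 values kept direction and side of the threshold and 7 newly passed it. No named region passed in the main test, so a kept side means only that it still did not pass. The regions were chosen for small p or opposite presence, so a kept direction says little.

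Regions of opposite presence numbered 4 (only 120) and 3 (only 30) when 25% cover counted as present, 6 and 3 at 75%, and 0 and 0 with strict peaks. Of the regions found at 50%, 2 and 2 were among those at 25%, and 0 and 0 among those at 75%. With 1 control library left out, which makes the condition easier and was added after seeing the data, they ranged from 8 to 22 and from 8 to 21. Left-out libraries moved the difference in peak number from 948 to 2155, in covered length from -2.29 to 0.377 Mb, in median width from -39.8 to -19.7 bp, and the Jaccard difference from -0.00339 to 0.0111. Covered length differed by 0.298 Mb in the range 69 to 80, and the Jaccard difference was -0.00434 in the range 43 to 59. No paired analysis was run, because the labels do not say which libraries, if any, belong together. Read depth, which sets how many weak peaks are called, is unknown and limits every comparison above. The causes of these changes were not tested.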

Other observations

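Among the 10 regions that led the higher direction, 3 lay within 544 kb of chromosome 3, from 5963342 to 6507755. This was seen after the values were known. The stretch held 29 tested regions, and these 3 were the ones with an unadjusted limma p under 0.05. The median difference over the 29 was 6.74 points, against 0 over all tested regions. The 3 regions set the bounds of the stretch and are among the 29, so the median says nothing about a shift of the stretch as a whole.

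On chromosome 15 from 7380847 to 7382229, control 120 libraries lay close together at 35.8, 36.5, 35.5, 34.7, 42.7 and 37.2%, against 74.5, 60.2, 77.7, 95.7 and 98.4% in control 30 libraries. Every library of both groups had peaks there, and the ranges did not overlap. The difference was -44.2 ± 11.9 points (SE, limma adjusted p = 1). Familiar libraries had 44.9% ± 17.5 at 120 (SD, n = 6) and 49.4% ± 31.0 at 30 (n = 5).

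Of the 766 regions lower at 120 with a small p in controls, 28 were also lower with a small p in familiar fish, beside 1847 of all 52924 tested regions. Whether 28 is more than that share gives was not tested. Among these 28, chromosome 12 from 5294043 to 5297948 was the second longest. It was covered by 7.69% ± 8.89 (SD) in control 120 and 40.9% ± 25.7 in control 30 libraries, and by 6.12% ± 10.1 in familiar 120 and 43.4% ± 28.8 in familiar 30 libraries (limma adjusted p = 1 in controls and 0.999 in familiar fish).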
